A study of Mus musculus with 7 samples.

Results

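The genes described here are 10 transcripts that mark mast cells: the chymases Mcpt4, Cma1 and Mcpt2, the tryptases Tpsab1 and Tpsb2, the carboxypeptidase Cpa3, the IgE receptor chains Fcer1a and Ms4a2, the histamine-forming enzyme Hdc and the growth factor receptor Kit. They were taken by name from a list drawn up with earlier results of these data known, among them lower mast cell transcripts in the knockout at day 6. The counts for that contrast, and for comparisons that contain it, therefore describe the list and support nothing further. For each gene the rule took the probe set that named it alone and had the highest mean over the 7 arrays. Each of the 10 genes had exactly 1 such probe set, and all 10 were among the 19937 genes measured.

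The study profiled mice of a mixed C57BL/6 and 129 background, with the scaffold gene Iqgap1 either knocked out or wild type, on Affymetrix Mouse Gene 1.0 ST arrays. The agent label of every sample was topical 4OHT (4-hydroxytamoxifen, a ligand that switches on tamoxifen-dependent proteins), with 0 or 6 days as the time point. Day 0 comprised 2 knockout arrays and 1 wild-type array, and day 6 comprised 2 arrays of each genotype. The labels called the sample mouse tissue and named neither the tissue, nor an inducible protein or transgene, nor the age or sex of the animals, nor whether the replicates came from separate mice. The p-values therefore measure only the spread between these arrays, which may be technical. Keratinocyte genes averaged 10.87 to 11.82 on the log2 scale in every array, against array medians of 5.61 to 5.79.

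Mast cells are resident cells of the skin and other barrier tissues that store proteases, histamine and proteoglycans in granules. Cross-linking of IgE on the high-affinity receptor FcεRI releases the granules, and Kit, the receptor for stem cell factor (Kitl), keeps the cells alive. Connective tissue mast cells of the mouse, the kind found in skin, are known for Mcpt4, Cma1, Tpsb2 and Cpa3, whereas Mcpt2 is known from mucosal mast cells. In whole tissue, fewer mast cells and less RNA per mast cell cannot be told apart.

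The array checks bear on all values below. Iqgap1 read 8.58 to 9.02 in the 4 knockout arrays and 9.94 to 10.59 in the 3 wild-type arrays, so the genotypes did not overlap, but the knockout arrays still read far above the silent level given below. Where its probes lie relative to the deleted part is not given in the sources used here. Xist, which is transcribed from the inactive X chromosome, read 11.15 in the wild-type day 0 array and 10.30 in replicate 1 of wild type at day 6, and 3.55 to 4.03 in the other 5 arrays. Both arrays with Xist were thus wild type, and the single wild-type array at day 0 was one of the arrays with Xist. Xist and Y-linked genes, where silent, read 3.50 to 4.25, which served as a guide to the level of a probe set without its transcript. Of the mast cell genes, Mcpt4, Cma1, Tpsab1, Tpsb2, Cpa3, Hdc and Kit lay above that range in every array, Mcpt2 and Fcer1a in some, and Ms4a2 in none.

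The promoters of Mcpt4, Cma1, Cpa3 and Fcer1a are shown as those of 4 granule and IgE receptor genes. They were picked from the 7 members in the RefSeq promoter table for holding a GATA motif. Ms4a2 also holds this motif there, but its promoter is not shown. Mcpt2, Tpsab1 and Tpsb2, which had the largest genotype differences at day 6, were not among those 7. The windows are the 250 bases before the gene start on the GRCm38.p6 assembly, in gene orientation, 5′ to 3′. Capitals mark GATAA on either strand (written TTATC where it lies on the opposite strand), the core of the motif of GATA factors that act in mast cells, and CATGTG on either strand (written CACATG), an E-box that MITF can bind. GATAA on either strand occurred in 22.6% of 32851 promoter windows of the same length, and CATGTG in 12.3%.
Mcpt4 promoter, chr14:56062311-56062560, minus strand: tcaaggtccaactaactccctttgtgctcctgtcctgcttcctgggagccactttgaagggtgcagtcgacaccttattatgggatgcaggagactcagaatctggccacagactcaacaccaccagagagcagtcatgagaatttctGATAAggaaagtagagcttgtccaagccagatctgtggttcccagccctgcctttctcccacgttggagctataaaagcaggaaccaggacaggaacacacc
Cma1 promoter, chr14:55944676-55944925, minus strand: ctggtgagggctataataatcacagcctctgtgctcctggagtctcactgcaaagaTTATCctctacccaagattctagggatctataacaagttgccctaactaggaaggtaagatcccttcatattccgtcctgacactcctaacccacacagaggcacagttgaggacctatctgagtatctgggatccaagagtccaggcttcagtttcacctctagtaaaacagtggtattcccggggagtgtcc
Cpa3 promoter, chr3:20242182-20242431, minus strand: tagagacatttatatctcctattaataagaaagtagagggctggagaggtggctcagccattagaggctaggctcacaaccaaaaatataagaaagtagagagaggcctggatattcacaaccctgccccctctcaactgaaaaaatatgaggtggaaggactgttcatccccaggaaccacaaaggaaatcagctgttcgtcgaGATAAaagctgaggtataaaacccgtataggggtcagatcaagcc
Fcer1a promoter, chr1:173227230-173227479, minus strand: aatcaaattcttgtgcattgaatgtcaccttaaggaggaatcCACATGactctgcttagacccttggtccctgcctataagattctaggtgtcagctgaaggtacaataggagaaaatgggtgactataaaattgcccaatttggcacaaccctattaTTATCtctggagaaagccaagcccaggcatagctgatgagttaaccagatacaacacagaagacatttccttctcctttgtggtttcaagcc
The GATAA match began at position -102 in Mcpt4, -194 in Cma1, -45 in Cpa3 and -92 in Fcer1a, counted from the gene start, and the CATGTG match in Fcer1a at -208. A TATAAA box lay at -32 in Mcpt4, -31 in Cpa3 and -125 in Fcer1a, a motif found on the gene strand in 7.59% of windows. A match is a description of letters and not a bound site. Ms4a2 held 3 GATAA matches, and Hdc and Kit held none of the 3 motifs in this window.

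Mcpt4, the main chymase of connective tissue mast cells, fell over the 6 days in the knockout. Its log2 values were 8.03 and 8.04 in the knockout at day 0, 8.09 in the wild type at day 0, 7.13 and 6.96 in the knockout at day 6, and 7.97 and 7.80 in the wild type at day 6. The knockout arrays at day 6 were the 2 lowest of the 7, and the other 5 lay between 7.80 and 8.09. In the knockout Mcpt4 fell by 0.99 ± 0.16 (SE) on the log2 scale from day 0 to day 6, which is 1.99-fold lower, with an adjusted p of 0.0077 (limma, Benjamini-Hochberg over all genes). In the wild type the difference was -0.21 ± 0.19 with an adjusted p of 0.665 (limma), and the difference between the 2 changes, -0.79 ± 0.25, missed the threshold (limma, adjusted p = 0.173). The change in the knockout missed the threshold without either knockout array of day 0 or without replicate 2 of the knockout at day 6, with adjusted p of 0.0512 to 0.0617 (limma).

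Cma1, a protease stored together with Cpa3, read 5.82 and 5.67 in the knockout and 5.52 in the wild type at day 0, and 5.37 and 5.42 in the knockout and 5.87 and 5.98 in the wild type at day 6. Both day 6 wild-type arrays were the highest of the 7 and both day 6 knockout arrays the lowest. The change over time was -0.36 ± 0.16 in the knockout and 0.41 ± 0.19 in the wild type, neither past the threshold (limma, adjusted p = 0.189 and 0.301). Mcpt2, the protease of mucosal mast cells, read 3.19 and 3.20 in the knockout and 3.28 in the wild type at day 0. At day 6 it read 3.47 and 3.43 in the knockout, and 4.79 and 5.24 in the wild type. The 2 wild-type day 6 arrays stood alone, since the other 5 values lay at or below the level of silent genes. In the wild type Mcpt2 rose by 1.73 ± 0.23 on the log2 scale against the single day 0 array (limma, adjusted p = 0.0077), a lower bound in size since that array read at the silent level.

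The tryptases cleave at basic residues and are stored as tetramers with heparin. Tpsab1 read 5.94 and 5.91 in the knockout and 5.85 in the wild type at day 0, then 6.79 and 6.88 in the knockout and 8.09 and 7.66 in the wild type at day 6. Every day 6 array lay above every day 0 array, and the wild type lay above the knockout at day 6. Tpsab1 was the only one of the 10 genes called in the comparison of days over both genotypes, where 11.5% of all genes were called, and it rose by 1.36 ± 0.25, 2.56-fold (limma, adjusted p = 0.0201). That call was lost without replicate 1 of the knockout at day 0 or replicate 2 of the knockout at day 6 (limma, adjusted p = 0.0536 and 0.0559). Tpsab1 rose 1.88-fold in the knockout and 4.07-fold in the wild type (limma, adjusted p = 0.0198 and 0.0043), but the knockout call was lost when any 1 of the 4 knockout arrays was left out (limma, adjusted p of 0.0943 to 0.107).

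Tpsb2, the second tryptase, read 6.87 and 6.94 in the knockout and 6.31 in the wild type at day 0, then 6.78 and 6.75 in the knockout and 7.92 and 7.66 in the wild type at day 6. The 4 knockout arrays lay between 6.75 and 6.94, whereas the wild type went from the lowest value of all to the highest 2. In the wild type Tpsb2 rose 2.79-fold, by 1.48 ± 0.20 (limma, adjusted p = 0.0078), and in the knockout the difference was -0.13 ± 0.16 (limma, adjusted p = 0.645). Tpsb2 was also the only gene of the 10 whose change over time differed between genotypes past the threshold, by -1.61 ± 0.26 with an adjusted p of 0.0266 (limma), where 3.1% of all genes were called and 1.35% with this sign. That call was lost without any 1 of the 4 knockout arrays, at adjusted p of 0.0817 to 0.112, and with all probe sets tested, at 0.0513 (limma). Tpsab1 and Tpsb2 are related genes of chromosome 17, and Mcpt2, Mcpt4 and Cma1 are related genes of chromosome 14. Whether probe sets share signal within either family was not tested.

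Cpa3, the carboxypeptidase that is stored with the chymases, read 9.12 and 8.66 in the knockout and 8.68 in the wild type at day 0, then 8.29 and 8.41 in the knockout and 9.05 and 9.22 in the wild type at day 6. The day 6 genotypes did not overlap, and the 2 knockout arrays at day 0 lay on either side of the lower wild-type value of day 6. The change over time was -0.53 ± 0.20 in the knockout and 0.45 ± 0.25 in the wild type (limma, adjusted p = 0.134 and 0.377), and neither passed.

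**Figure D1:**
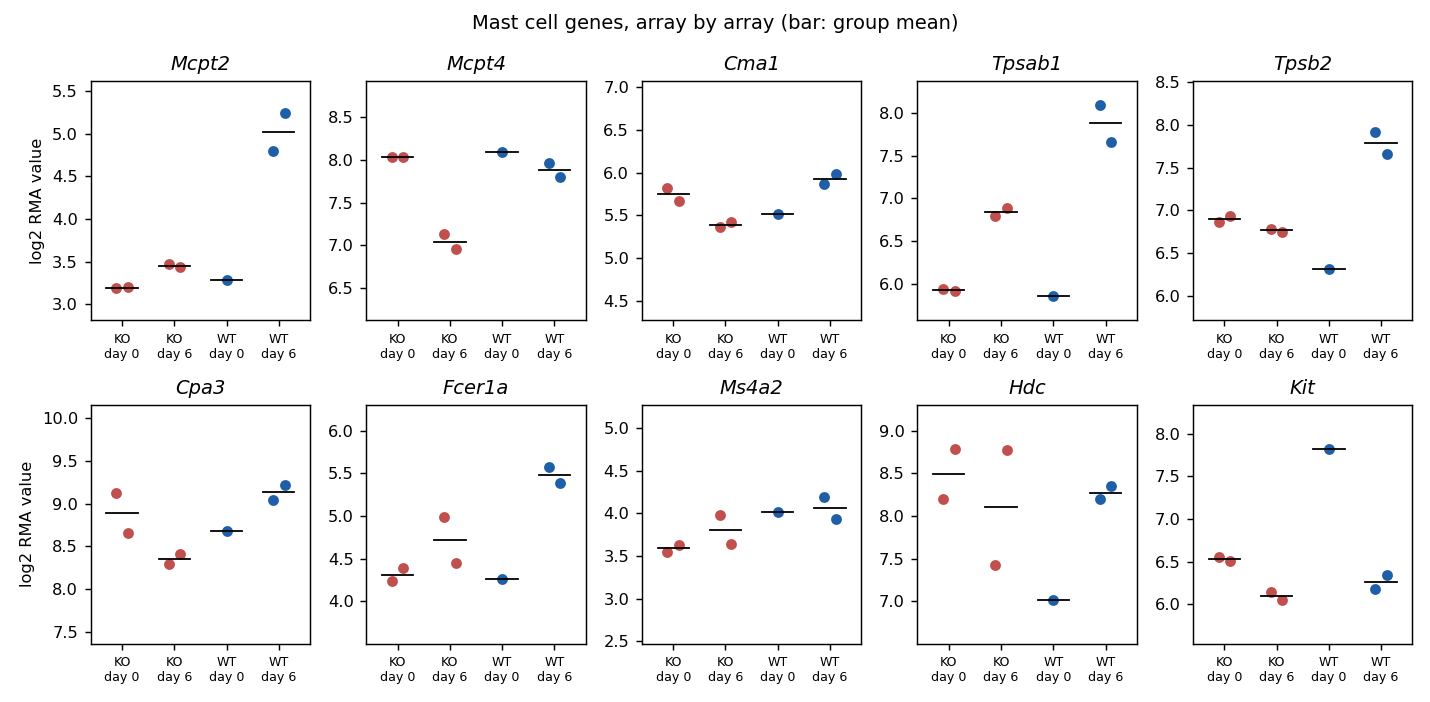
Log2 RMA value (y axis) of each of the 10 mast cell genes in every array, grouped by genotype (KO, knockout; WT, wild type) and day, with a bar at the group mean. Mcpt2, Tpsab1 and Tpsb2 were high in the wild type at day 6, Mcpt4 was low in the knockout at day 6 with 7.13 and 6.96, and Kit stood at 7.82 in the single wild-type day 0 array. Each panel has its own y range of the same width.

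Fcer1a, the alpha chain that binds IgE, read 4.24 and 4.39 in the knockout and 4.26 in the wild type at day 0, near the silent level, then 4.99 and 4.45 in the knockout and 5.57 and 5.38 in the wild type at day 6. All 4 day 6 arrays lay above all 3 day 0 arrays, and the wild-type pair lay highest. Fcer1a rose by 1.21 ± 0.26 on the log2 scale in the wild type (limma, adjusted p = 0.0424), a lower bound in size since the day 0 array was near the silent level. It was a call that was lost without either knockout day 0 array, without either wild-type day 6 array and with all probe sets tested (limma, adjusted p of 0.0735 to 0.0772). Ms4a2, the beta chain that amplifies the receptor signal, read 3.55 to 4.19 in all 7 arrays, within the range of silent genes, so no difference in it can be read, and it is set apart where directions are counted. Hdc forms histamine from histidine. It read 8.20 and 8.79 in the knockout and 7.02 in the wild type at day 0, then 7.42 and 8.77 in the knockout and 8.20 and 8.35 in the wild type at day 6. The 2 knockout arrays of day 6 lay on either side of both wild-type arrays, and no comparison of Hdc passed the threshold with all arrays fitted (limma, adjusted p of 0.108 to 0.968). Hdc was called higher in the knockout at day 0 with only the groups compared or without either knockout array of day 6 (limma, adjusted p = 0.0271 and 0.0346), and higher at day 6 in the wild type with only the groups compared (limma, adjusted p = 0.0322). Csf3r, a receptor of neutrophils chosen here after its values were seen, was also lowest in the wild-type day 0 array and in replicate 1 of the knockout at day 6: it read 6.46 and 7.42 in the knockout and 5.19 in the wild type at day 0, then 6.31 and 7.71 in the knockout and 7.37 and 7.41 in the wild type at day 6. Its Pearson r with Hdc over the 7 arrays was 0.92, and that of C5ar1, a receptor of myeloid and mast cells, was 0.85, given as descriptions. Not every gene of the neutrophil list followed Hdc. S100a8 read 6.71 and 7.99 in the knockout and 7.48 in the wild type at day 0. At day 6 S100a8 read 11.51 and 11.50 in the knockout and 11.98 and 11.65 in the wild type. The part of other myeloid cells in the Hdc values was not tested.

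Kit read 6.55 and 6.51 in the knockout and 7.82 in the wild type at day 0, then 6.15 and 6.05 in the knockout and 6.18 and 6.34 in the wild type at day 6. The single wild-type day 0 array stood above the other 6, whose highest value was 6.55. Kit fell by 1.56 ± 0.19 in the wild type, 2.95-fold (limma, adjusted p = 0.0054), and was 2.45-fold lower in the knockout than in the wild type at day 0 (limma, adjusted p = 0.0083). Melanocytes also use Kit, and most of the listed melanocyte genes were, like Kit, highest in the wild-type day 0 array. Tyr, the pigment-forming tyrosinase, read 9.63 in the wild-type day 0 array and 3.97 to 4.53 in the other 6. Sox10, also listed, was not highest there: it read 6.19 in that array, and 6.10 and 6.35 in the knockout at day 0. The mean of 10 melanocyte genes was 9.77 in that array and 5.98 to 6.58 in the others, and 8 of the 10 were called lower in the knockout at day 0 (limma), against 5.86% of all genes. The part of melanocytes in the Kit value was not tested, and the wild-type day 0 value has no replicate.

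**Figure D2:**
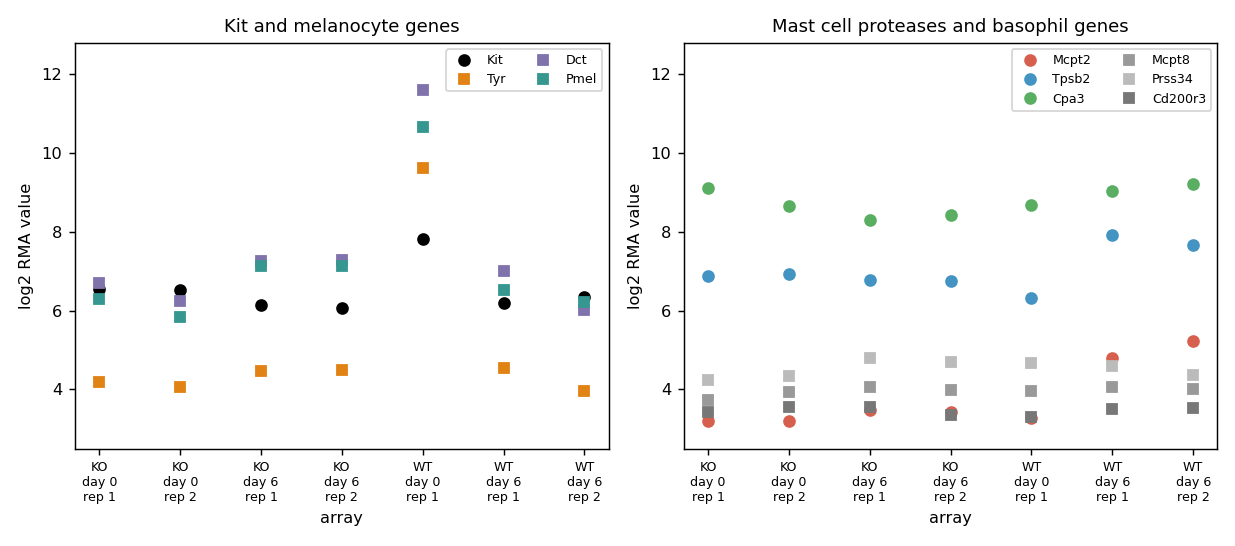
Log2 RMA values (y axis) in each of the 7 arrays (x axis) of Kit with the melanocyte genes Tyr, Dct and Pmel (left), and of Mcpt2, Tpsb2 and Cpa3 with the basophil genes Mcpt8, Prss34 and Cd200r3 (right). Kit and these melanocyte genes were highest in the wild-type day 0 array, where Tyr read 9.63. Sox10, of the same melanocyte list, is not shown and read 6.19 there, against 5.78 to 6.35 over the arrays. Mcpt8, Prss34 and Cd200r3 lay at 3.30 to 4.79 in every array, and Tpsb2 read 7.92 and 7.66 and Mcpt2 4.79 and 5.24 in the wild type at day 6. The rest of the basophil list is not shown: Il3ra, Itga2 and Csf2rb read 6.97 or more in every array and Cd69 4.32 to 4.67.

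At day 6, the 9 genes other than Ms4a2 were all lower in the knockout than in the wild type, against 49.9% of all genes, and for 8 of them both knockout arrays lay below both wild-type arrays, against 15.7% of all genes. The largest measured differences were Mcpt2 at -1.57 ± 0.19, a lower bound in size since both knockout arrays read at the silent level, Tpsab1 at -1.04 ± 0.19 (2.06-fold) and Tpsb2 at -1.02 ± 0.16 (2.03-fold). Mcpt4 at -0.84 ± 0.16, Cpa3 at -0.78 ± 0.20, Fcer1a at -0.76 ± 0.22 and Cma1 at -0.53 ± 0.16 followed, and Kit and Hdc lay at -0.16 and -0.17, with Hdc turning to 0.50 without replicate 1 of the knockout at day 6. The median over the 9 was -0.78, against 0.00 over all genes. None of the 10 passed the threshold, nor did any gene of the 19937 (0% called), with the lowest adjusted p of the members at 0.503 (limma). At an unadjusted p under 0.05, 7 of the 10 genes passed in limma, against 5.93% of all genes. Without replicate 2 of the wild type at day 6, 43 genes were called, none of them among the 10. With 2 arrays a group and so few degrees of freedom, the absence of calls did not show that the genotypes were alike. Against wild-type replicate 2 alone, which lacked Xist as the knockout arrays did, the median over the same 9 genes was -0.76, with Mcpt2 at -1.79. All 9 were lower there. For the 8 genes without overlap that direction was already fixed, and the arrays were the same, so it is no separate check.

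**Figure D3:**
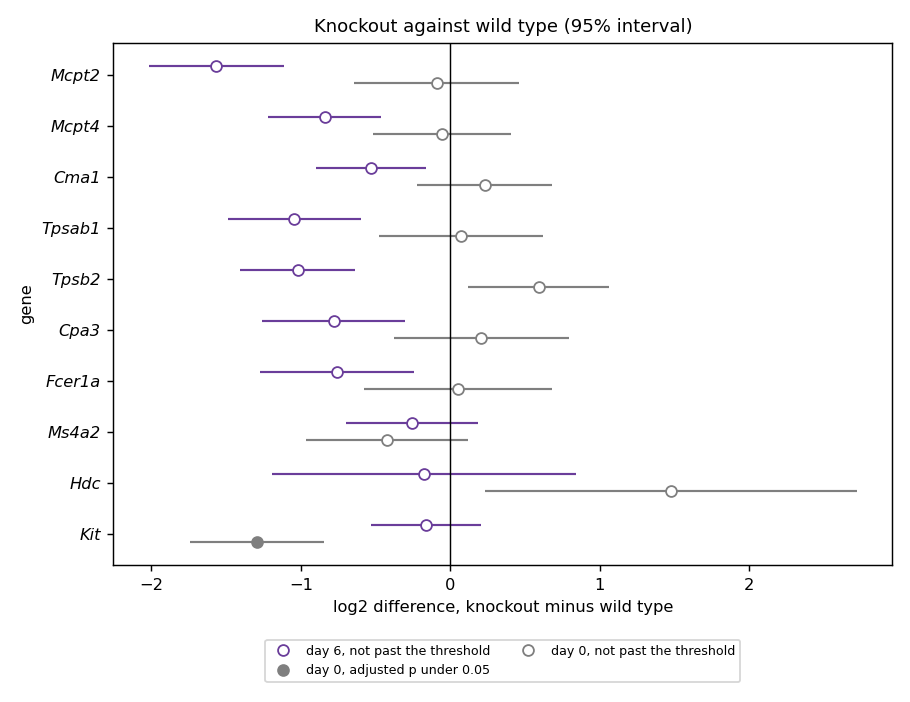
Log2 difference, knockout minus wild type (x axis), with its 95% interval for each gene at day 6 (purple) and day 0 (grey), filled where the adjusted p was under 0.05. At day 6 the points lay below 0, Mcpt2 farthest at -1.57, and none was filled; the point of Ms4a2, which read at the silent level in every array, cannot be interpreted. At day 0, where wild type was a single array, the points lay on both sides of 0 and only Kit was filled.

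At day 0, where Mcpt2 as well as Ms4a2 read at the silent level, 6 of the other 8 genes were higher in the knockout and 2 lower, against 41.7% and 58.3% of all genes, with a median of 0.14, and Mcpt4 turned from lower to higher when arrays were centred on their medians. That centring moved the median of all genes by 0.14 at day 0 and by -0.15 for the difference between the changes. At day 0 Kit was the only member called, where 14.4% of all genes were and 5.86% were called lower. Over both days, 8 of the 9 genes other than Ms4a2 were lower in the knockout, but 55.8% of all genes were lower too, and 0 members and 0% of all genes passed (limma), with 4 of the 10 at an unadjusted p under 0.05 against 18.7% of all genes.

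Over both genotypes, every day 6 array lay above every day 0 array for 3 of the 10 genes (Mcpt2, Tpsab1 and Fcer1a), against 11.9% of all genes. For 2 (Mcpt4 and Kit) every day 6 array lay below, against 9.66%. Mcpt2 read at the silent level in all knockout arrays and at day 0, so its order among those arrays carries no weight. Fcer1a was separated by only 4.45 against 4.39, near that level. From day 0 to day 6, in the knockout, 1 of the 10 genes was called higher (Tpsab1) and 1 lower (Mcpt4), where 7.24% of all genes were called higher and 9.07% lower, 16.3% in all. In the wild type 4 were called higher (Mcpt2, Tpsab1, Tpsb2 and Fcer1a) and 1 lower (Kit), where 3.51% of all genes were called higher and 3.61% lower, 7.11% in all. The median change over all 10 was -0.24 in the knockout and 0.83 in the wild type, against 0.10 and 0.00 over all genes. With members at the silent level left out, it was -0.38 in the knockout (without Mcpt2 and Ms4a2) and 1.21 in the wild type (without Ms4a2). The 2 changes are measured against day 0 groups of 2 and 1 arrays. The difference between them was itself tested for each gene: only Tpsb2 passed, and Mcpt2 at -1.48 ± 0.30 and Kit at 1.13 ± 0.24 missed the threshold (limma, adjusted p = 0.0550 and 0.0655). Of the 10, 8 had an unadjusted p under 0.05, with Kit of the opposite sign among them, against 17.3% of all genes. The difference between the changes contains the day 6 contrast that was known when the list was drawn up. That count therefore describes the list and supports nothing further.

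**Figure D4:**
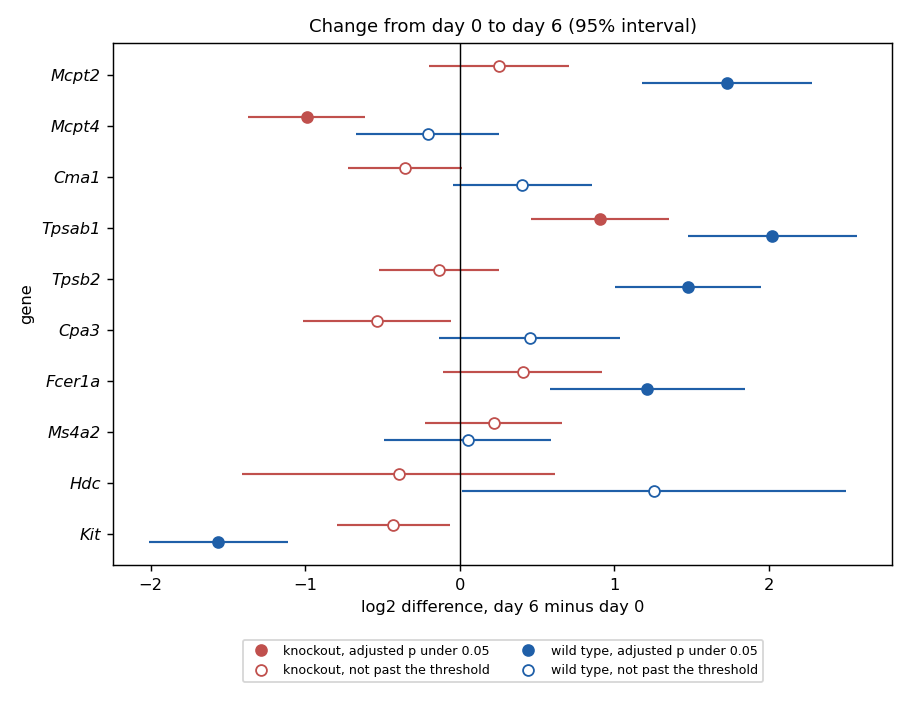
Log2 difference, day 6 minus day 0 (x axis), with its 95% interval for each gene in the knockout (red) and wild type (blue), filled where the adjusted p was under 0.05. Tpsab1 rose in both genotypes, by 0.91 and 2.02, Mcpt4 was filled in the knockout at -0.99 and Kit in the wild type at -1.56.

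The change of the tryptase Tpsab1 minus that of the chymase Mcpt4, relative to day 0 of the same genotype, was 1.77 and 2.03 in the 2 knockout arrays at day 6 and 2.36 and 2.10 in the 2 wild-type arrays. For the other tryptase, Tpsb2, the mean change was -0.13 in the knockout and 1.48 in the wild type, beside -0.99 and -0.21 for Mcpt4. These are descriptions of pairs chosen after their values were seen, and the genotypes were not compared in them.

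Of the 16 measured genes that make or store other mast cell products, 0 were called between genotypes at day 6 (limma, 3 at an unadjusted p under 0.05). The largest difference was in Tph1, which makes serotonin, at -0.98 ± 0.27, with 4.92 and 4.74 in the knockout and 5.42 and 6.21 in the wild type. Over time Hpgds, which makes prostaglandin D2, rose by 1.27 ± 0.22 over both genotypes and Slc18a1 by 1.07 ± 0.21 (limma, adjusted p = 0.0166 and 0.0234). Ptgs2, an inducible prostaglandin enzyme also made by many other cells, rose by 3.01 ± 0.36 in the wild type, against a single day 0 array. Of 11 other granule proteases 0 were called between genotypes at day 6 (limma, 0 at an unadjusted p under 0.05), and only Dpp7 fell over both genotypes, by 1.08. Mcpt8, a basophil protease, read 3.73 to 4.07 over the arrays, Mcpt1 3.40 to 4.07 and Prss28 3.91 to 4.18, all at the silent level. Prss34, Prss29 and Ctsg read at most 4.79, 4.64 and 4.73, little above it. For these genes the absence of calls does not show that the genotypes were alike.

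Of 13 surface receptors, 2 fell over both genotypes: Mrgprb2, a receptor for basic secretagogues of connective tissue mast cells, by 1.10 ± 0.22, and Enpp3 by 1.17 ± 0.28 (limma, adjusted p = 0.0262 and 0.0434), where 5.62% of all genes were called lower. Mrgprb2 read 5.45 and 5.46 in the knockout and 4.93 in the wild type at day 0, then 3.92 and 3.97 in the knockout and 4.34 and 4.54 in the wild type at day 6, so it lay near the silent level at day 6 in the knockout. In the knockout alone Mrgprb2 fell by 1.51 ± 0.16 (limma, adjusted p = 0.0017). Between genotypes at day 6, 0 of 13 were called (limma, 2 at an unadjusted p under 0.05), the largest being Mrgprb1 at -0.68.

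Of 12 measured growth and recruiting factors of mast cells, 2 rose and 1 fell over both genotypes, where 5.85% of all genes were called higher and 5.62% lower. Kitl, the ligand of Kit, fell by 1.16 ± 0.18 over both genotypes (limma) and read 8.42 to 9.31 at day 0 and 7.68 to 7.80 at day 6, with no overlap. Tslp, an alarmin of keratinocytes, rose by 5.80 ± 0.44, and Tgfb1 rose by 0.99 ± 0.20 (limma). Between genotypes at day 6, 0 of the 12 were called (limma, 0 at an unadjusted p under 0.05), the largest being Il33 at 1.27. Il33 read 10.96 and 11.09 in the knockout, but 8.63 and 10.88 in the wild type. Il3, Il9, Il4 and Csf2 read at most 3.41, 4.47, 4.59 and 4.53, at or little above the silent level. For these genes the absence of calls does not show that the genotypes were alike. Of 22 genes of FcεRI and Kit signalling, 2 rose and 2 fell over both genotypes, Plcg1 by 0.73 and Lat2 by 0.79 against Fyn at -1.04 and Nfatc2 at -1.52, near the shares of all genes called higher and lower (5.85% and 5.62%). In the knockout 6 fell and 1 rose (limma), where 9.07% of all genes were called lower and 7.24% higher. At day 0, 11 of the 22 were called higher in the knockout, against the 1 wild-type array and with 8.53% of all genes called higher, and 0 of 22 were called at day 6 (limma, 1 at an unadjusted p under 0.05), the largest being Rasgrp1 at 0.91. Of 13 mast cell transcription factors Mitf fell over both genotypes, by 1.42 ± 0.16, and the list shares Mitf with melanocytes. In the knockout 5 of the 13 fell and 0 rose (limma), where 9.07% of all genes were called lower and 7.24% higher. At day 0, 10 of the 13 were higher in the knockout, whatever the p, against the 1 wild-type array and 41.7% of all genes. At day 6, 0 of 13 were called between genotypes (limma, 1 at an unadjusted p under 0.05), with Zeb2 at 0.44 largest. Of 7 histamine receptors and breakdown enzymes only Maob fell, by 2.52 over both genotypes, and 0 were called between genotypes at day 6 (limma, 0 at an unadjusted p under 0.05).

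Markers of other cells were read beside these results. Basophils also carry the IgE receptor. The basophil list averaged 6.23 and 6.31 in the knockout and 6.36 and 6.22 in the wild type at day 6, so the genotypes overlapped. Of its genes, Mcpt8, Prss34 and Cd200r3 read 3.30 to 4.79 in every array and Cd69 4.32 to 4.67, whereas Il3ra, Itga2 and Csf2rb read 6.97 or more. The part of basophils in the mast cell values was not tested. Of the 7 listed basophil genes 0 were called between genotypes at day 6 (limma, 0 at an unadjusted p under 0.05), and over time Itga2, an integrin that keratinocytes also make, rose by 1.94 ± 0.37 over both genotypes and Csf2rb fell by 0.78 ± 0.18 in the knockout (limma, adjusted p = 0.0227 and 0.0273). At day 0 both Itga2 and Csf2rb were called higher in the knockout, by 1.51 ± 0.29 and 1.58 ± 0.22, against the 1 wild-type array (limma). Neutrophil genes averaged 6.81 and 7.33 in the knockout and 7.97 and 7.36 in the wild type at day 6. Of the 10, 9 were lower in the knockout, against 49.9% of all genes, with Mmp8 furthest at -2.27 ± 0.57 and none called (limma, 2 at an unadjusted p under 0.05). Some read low, such as Ltf at 4.14 to 4.83 and Elane at 4.60 to 5.30 over the arrays, so their direction carries little weight. Keratinocyte genes averaged 11.44 and 11.69 in the knockout and 10.87 and 11.49 in the wild type at day 6, so the genotypes overlapped. Replicate 1 of the wild type was the low array: Krt1 read 9.49 there and 12.10 in replicate 2, against 11.91 and 12.27 in the knockout. By group means all 10 keratinocyte genes were higher in the knockout, against 50.1% of all genes, and none was called (limma, 0 at an unadjusted p under 0.05). Macrophage and monocyte genes averaged 8.20 and 9.13 in the knockout and 8.77 and 8.93 in the wild type, and T cell genes 5.53 and 5.74 against 5.62 and 5.51, with overlap in both lists. Between day 0 and day 6 the mean of skeletal muscle genes went from 11.17 to 12.36 down to 8.91 to 9.85, that of adipocyte genes from 10.01 to 10.77 down to 7.08 to 7.96, and that of fibroblast genes from 10.30 to 11.29 down to 8.71 to 9.87. The part of these shifts in the mast cell values was not tested. Endothelial genes, at 7.55 to 8.88, overlapped between days.

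Over the 7 arrays, 7399 genes had a range of at least 1 log2 unit. Among them Rny1 (r = 0.889), Epgn (0.865), Gm5662 (0.822), Isca2 (0.812) and Mir692-1 (0.793) had the Pearson correlations nearest to 1 with the mean of Cma1, Mcpt4, Tpsb2 and Cpa3, over 7 arrays that share genotype and day. The list is a description, with no p.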

How the data were processed

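The series held 7 single-colour Affymetrix Mouse Gene 1.0 ST arrays, for which RNA was extracted with RNeasy, amplified with MessageAmp III and labelled with biotin, per the labels' protocols. The authors deposited log2 values for 34760 probe sets, and the submitters' processing notes name RMA and R 2.11.1. A genome build was not given in the sources used here. Of the probe sets, 21640 carried 1 gene symbol in the platform annotation, 1321 several and 11799 none. Genes with several probe sets were represented by the brightest, which gave 19937 genes. Differences were fitted with limma 3.58.1 (R 4.3.3, lmFit and eBayes) and adjusted by Benjamini-Hochberg over all 19937 genes, with a threshold of 0.05. Comparisons within a day or genotype used the 4 group means with 3 residual degrees of freedom, and the comparisons over both used genotype and day as additive terms with 4. The single wild-type array at day 0 borrows its error from the other groups. The fit was tested on simulated data. All 10 members were named in every comparison; from each other list, genes past the threshold (at most 4 with the smallest p) and the largest difference were named, and the 5 genes most like the mean of 4 members. The members and lists were chosen with earlier results of these data known. Promoters came from RefSeq on GRCm38.p6, where 7 of 10 members matched. For the alternatives, moderation, the genes tested, a filter on dim genes, scaling, the arrays entered, a replicate block and arrays left out were varied. Precision is limited by the number of arrays.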

Additional observations from a re-analysis of the deposited data

Results flagged for a closer look

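For 3 of the 10 genes both knockout arrays of day 6 lay below both of day 0, none of these changes past the threshold within the knockout, while both wild-type arrays of day 6 lay above the single wild-type day 0 array. The change in the knockout minus that in the wild type was -1.61 ± 0.26 for Tpsb2 (limma, adjusted p = 0.0266), -0.99 ± 0.32 for Cpa3 (limma, adjusted p = 0.175) and -0.76 ± 0.25 for Cma1 (limma, adjusted p = 0.175). For Cpa3 and Cma1 the difference missed the threshold. No group held 4 arrays or more, so no array was tested as an outlier.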

How the results depend on the processing

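Over 16 settings, 958 of 1009 values of single genes kept their direction and side of the threshold. Most of the 70 results behind them were not called with all arrays fitted, so most of these values were calls neither made nor lost. Of the rest, 19 lost a call, 13 gained 1 and 19 changed direction. Averaging probe sets could not move the value of a member, since each had 1 probe set. The number of the 10 genes called was 1 for the days over both genotypes, 0 to 2 with single arrays left out and 2 without both arrays with Xist. In the knockout 2 were called, 0 to 2 with arrays left out. In the wild type 5 were called, 4 to 5 with arrays left out, 6 with only the groups compared, where Hdc was added, 4 with all probe sets and 3 among genes with a mean of at least 5, where Mcpt2 and Fcer1a were not tested. Mcpt2, Tpsab1, Tpsb2 and Kit passed there in every setting that tested them. At day 0 the count was 1, 1 to 2 with arrays left out, and 2 with arrays centred on their medians and with only the groups compared. For the difference between genotypes it was 1, against 2 with a variance trend, 0 with all probe sets and 0 to 3 with arrays left out.

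With single arrays left out, the log2 change over both genotypes ranged from -0.36 to 0.063 for Cma1, -0.13 to 0.69 for Tpsb2, -0.53 to 0.077 for Cpa3 and -0.40 to 0.77 for Hdc, and without both arrays with Xist it was -0.13 for Tpsb2 and -0.40 for Hdc. Other leave-out ranges that crossed 0 were, for Hdc, -0.17 to 0.99 between genotypes over both days, -1.07 to 0.28 in knockout and -0.85 to 0.50 at day 6, for Ms4a2 in wild type -0.075 to 0.18, and at day 0 -0.024 to 0.44 for Cpa3 and -0.026 to 0.12 for Fcer1a. Without both arrays with Xist, Hdc over both days was -0.25. At day 0 Mcpt2 was 0.050 and Mcpt4 0.087 with centred arrays, Mcpt2 0.030 after repeated quantile normalization and Mcpt4 0.0012 with the replicate block. The cause was not tested.

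Over all genes, 0 were called between genotypes at day 6, against 43 without replicate 2 of wild type at day 6 and 1 with all probe sets. Over both days 0 were called, against 836 without that replicate. The days over both genotypes gave 2286 calls, 727 to 3251 with arrays left out and 4027 without both arrays with Xist. The knockout gave 3251, the wild type 1418 and the difference between changes 619. Day 0 gave 2869, and 4978 with only the groups compared. With single arrays left out, the count of each of these comparisons fell in some fits and rose in others.

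The deviations of same-numbered arrays had r of 0.0862 (knockout at day 0 with knockout at day 6), 0.0365 (knockout at day 0 with wild type at day 6) and 0.227 (knockout with wild type at day 6). Whether equal numbers stand for shared handling was not tested. With the replicate block 1745 genes were called for the days over both genotypes and 3523 in the knockout, against 2286 and 3251 without it. With the replicate block the members called were 1, 0, 2, 5, 0, 1 and 1 over the 7 comparisons, as without it. Comparisons that need wild type at day 0 could not be fitted without that array.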
